A study of Mus musculus with 12 samples.

Results

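The genes described here are 42 interferon-stimulated genes of the mouse, the antiviral set that cells switch on when type I interferon reaches them. They were chosen by name from the 53801 genes of the deposited table, with earlier results of these data known, and all 42 were found. A gene was tested when its mean level over the 12 libraries was at least 1 FPKM (sequenced fragments scaled to transcript length and library size), a cutoff that 14246 genes passed. It kept 40 of the 42. Ifih1 lay just inside the cutoff with a mean of 1.13 FPKM, and Mx1 and Mx2 lay just outside it with means of 0.721 and 0.554 FPKM.

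RNA was read from 12 tumours, 3 for each of 4 treatments, in C57BL/6 female mice aged 6 to 8 weeks. The cells injected were LLC, the Lewis lung carcinoma line, which arose in the same strain, and were given in Matrigel at each flank, so every group had a host matched to the line. The groups were a combination of cisplatin and brivanib (libraries 2, 3 and 4), brivanib alone (2, 3 and 5), cisplatin alone (1, 2 and 3) and vehicle (2, 3 and 5). Cisplatin is a platinum drug that crosslinks DNA, and brivanib inhibits the kinases of the VEGF and FGF receptors. Each group had 6 mice carrying 10 to 12 tumours, and 100 µL was injected into the peritoneum 2 times a week for 4 weeks once tumours had reached 100 mm3. Doses were not stated in the labels read here. Whether the 3 libraries per treatment stem from different mice is also unstated, and p-values therefore speak to the variation among these libraries alone, which may be technical. The series title names the DNA sensor cGAS and antitumour immunity, and the comparisons below ask how the interferon response genes stood under each drug and under both.

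Type I interferons are secreted proteins that bind the receptor chains IFNAR1 and IFNAR2. The receptor's kinases JAK1 and TYK2 then phosphorylate STAT2, which acts with IRF9 in the factor ISGF3. ISGF3 binds a short sequence, the interferon-stimulated response element (ISRE), near the start of many responding genes. The products block viral replication at many steps, among them RNA degradation through the OAS enzymes, arrest of translation by PKR, tagging of proteins with ISG15, and trapping of virions by tetherin. In tumours, DNA that leaks into the cytosol can start the same programme through cGAS and STING.

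Promoter windows show an element that many of these genes hold. RefSeq promoters (build GRCm38.p6, 250 bases before to 50 after each annotated start) were on hand for 32 of the 42 genes. The ISRE core (GAAA, then NN, then GAAA, where N is any base), searched on both strands with overlapping matches counted, was in the windows of 15 of these 32 genes (46.9%), against 1079 of all 27025 gene symbols in the table (3.99%). The core of the interferon-gamma activated site (GAS), TTCNNNGAA, also searched on both strands, was in 6 of the 32 (18.8%), against 9.55% of all symbols. A match describes the letters and does not show that a factor binds there. The sites of 6 genes are shown to compare their cores, each read 5′ to 3′ on the strand that carries the match, with the matched bases in capitals and 6 flanking bases on each side. The Oas1a and Oas1g strings were identical, and so were those of Ifit3 and Ifit3b. The Isg15 string held 3 overlapping matches.
Isg15 site (chr4:156200869-156200902): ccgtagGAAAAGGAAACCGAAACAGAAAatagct
Oas1a site (chr5:120907524-120907551): tctcggGAAATGGAAACTGAAAatctac
Oas1g site (chr5:120887610-120887637): tctcggGAAATGGAAACTGAAAatctac
Ifit3 site (chr19:34583367-34583388): gaagagGAAAGTGAAActtacc
Ifit3b site (chr19:34607763-34607784): gaagagGAAAGTGAAActtacc
Bst2 site (chr8:71537581-71537608): ttccagGAAAATGAAACTGAAAggctgc

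The whole windows of 3 genes that rose under the combination are shown because 2 of them hold the core and 1 does not. Oas1a lies on the minus strand (window chr5:120907476-120907775), and its 2 overlapping matches begin 20 bases before the start. Trim30a lies on the minus strand (window chr7:104465144-104465443), and its match, on the opposite strand, begins 36 bases before the start. The Xaf1 window, on the plus strand (chr11:72301379-72301678), has no match to the ISRE core. Capitals mark the matches.
Oas1a promoter: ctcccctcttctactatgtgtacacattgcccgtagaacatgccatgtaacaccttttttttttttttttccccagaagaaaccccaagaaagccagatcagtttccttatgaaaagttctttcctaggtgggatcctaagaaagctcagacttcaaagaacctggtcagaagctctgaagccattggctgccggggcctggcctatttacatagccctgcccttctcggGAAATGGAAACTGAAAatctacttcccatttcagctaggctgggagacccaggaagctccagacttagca
Trim30a promoter: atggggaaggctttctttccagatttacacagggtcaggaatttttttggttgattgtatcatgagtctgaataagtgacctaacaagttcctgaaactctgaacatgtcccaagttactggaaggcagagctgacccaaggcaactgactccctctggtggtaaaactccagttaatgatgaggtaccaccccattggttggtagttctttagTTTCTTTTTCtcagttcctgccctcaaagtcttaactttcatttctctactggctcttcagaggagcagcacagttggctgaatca
Xaf1 promoter: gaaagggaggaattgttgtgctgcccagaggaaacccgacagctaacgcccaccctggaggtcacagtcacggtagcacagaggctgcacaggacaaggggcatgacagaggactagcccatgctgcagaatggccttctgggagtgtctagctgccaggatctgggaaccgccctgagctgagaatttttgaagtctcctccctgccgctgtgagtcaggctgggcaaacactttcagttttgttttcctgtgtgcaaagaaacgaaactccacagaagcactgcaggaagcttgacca

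**Figure D1:**
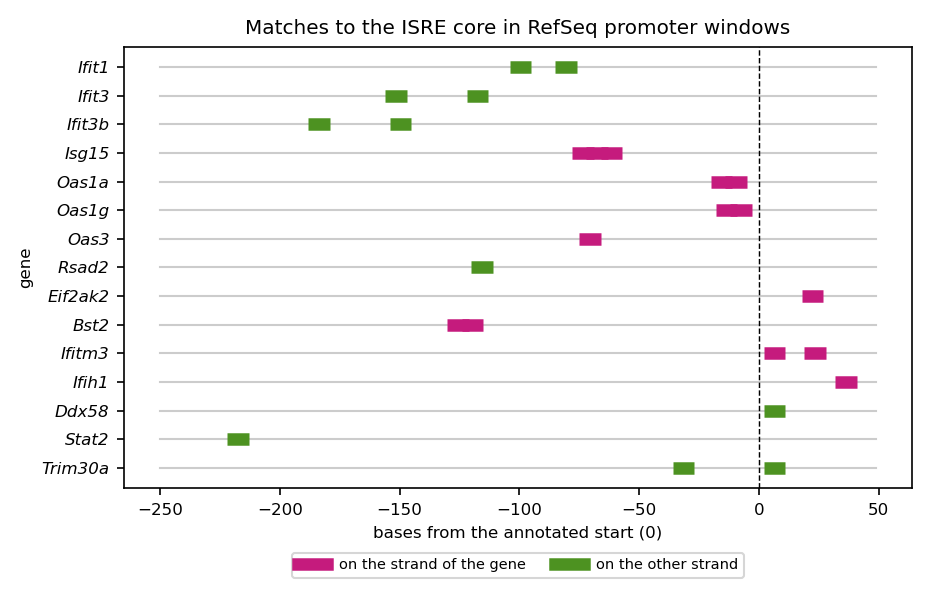
Matches to the ISRE core in the RefSeq promoter windows of the 15 genes that hold one, by distance in bases from the annotated start (dashed line at 0), coloured by strand. Trim30a has a second annotated start and is drawn with the match of both windows; the Oas1a and Oas1g matches lie just before the start and those of Eif2ak2, Ifitm3, Ifih1 and Ddx58 after it.

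Levels of the 42 genes spanned a wide range per length. Ifitm3, a membrane protein that blocks the entry of enveloped viruses, had the highest mean at 231 FPKM. Bst2, which encodes tetherin, followed at 144 FPKM. Lgals3bp, a secreted glycoprotein that binds galectins, had 44.6 FPKM and Ifi27l2a 40.6 FPKM. At the low end, fragments per library ranged from 11 to 95 for Mx1 and from 0 to 92 for Mx2. Mx proteins are dynamin-like GTPases that trap viral nucleocapsids. The leading Mx1 transcript (53.8% of its FPKM) is annotated for nonsense-mediated decay, and the leading Mx2 transcript (52.3%) as a polymorphic pseudogene. Levels of these 2 genes need not stand for a working protein.

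The libraries held 17.161 to 30.943 M recovered fragments (M, mega). In brivanib 5, features with ribosomal RNA sequence took 37.819% of the fragments, against 0.237% to 0.611% in the other 11 libraries. Summed levels of 10 skeletal muscle markers were 292.6 FPKM in brivanib 3, 251.9 in brivanib 5 and 45.4 in combination 2, and 0.854 to 23.6 FPKM in the others. Of the 5 epithelial markers checked, Krt18 had 0 fragments in every library, Krt8 was at most 0.222 FPKM, and Krt19 had 2.58 FPKM in brivanib 2, 1.48 FPKM in brivanib 5 and at most 0.262 FPKM elsewhere. Epcam averaged 0.818 FPKM, and Cdh1 alone passed the cutoff. The tissue was read in bulk, so fewer cells of a type and less RNA per cell cannot be told apart.

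The combination was first set against vehicle. Most of the set stood higher: 6 of the 40 tested genes rose (15%), where 1.82% of all tested genes were called higher, and 0 fell, where 0.519% of all were called lower (2.34% in either direction). In limma's moderated test on log2(FPKM + 1), with Benjamini-Hochberg adjustment over all tested genes, these were Oas1a, Xaf1, Ifit2, Ifi27l2a, Trim30a and Irf9. All 3 combination libraries lay above all 3 vehicle libraries for 29 of 40 genes, against 17.2% of all tested genes, and below them for 0, against 9.35%. The log2 fold change was above 0 for 39 of 40, against 56.7% of all. Its median was 0.71 over the 40 genes and 0.04 over all tested genes. An unadjusted p under 0.05 was found for 31 of the 40, against 18.8% of all tested genes.

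**Figure D2:**
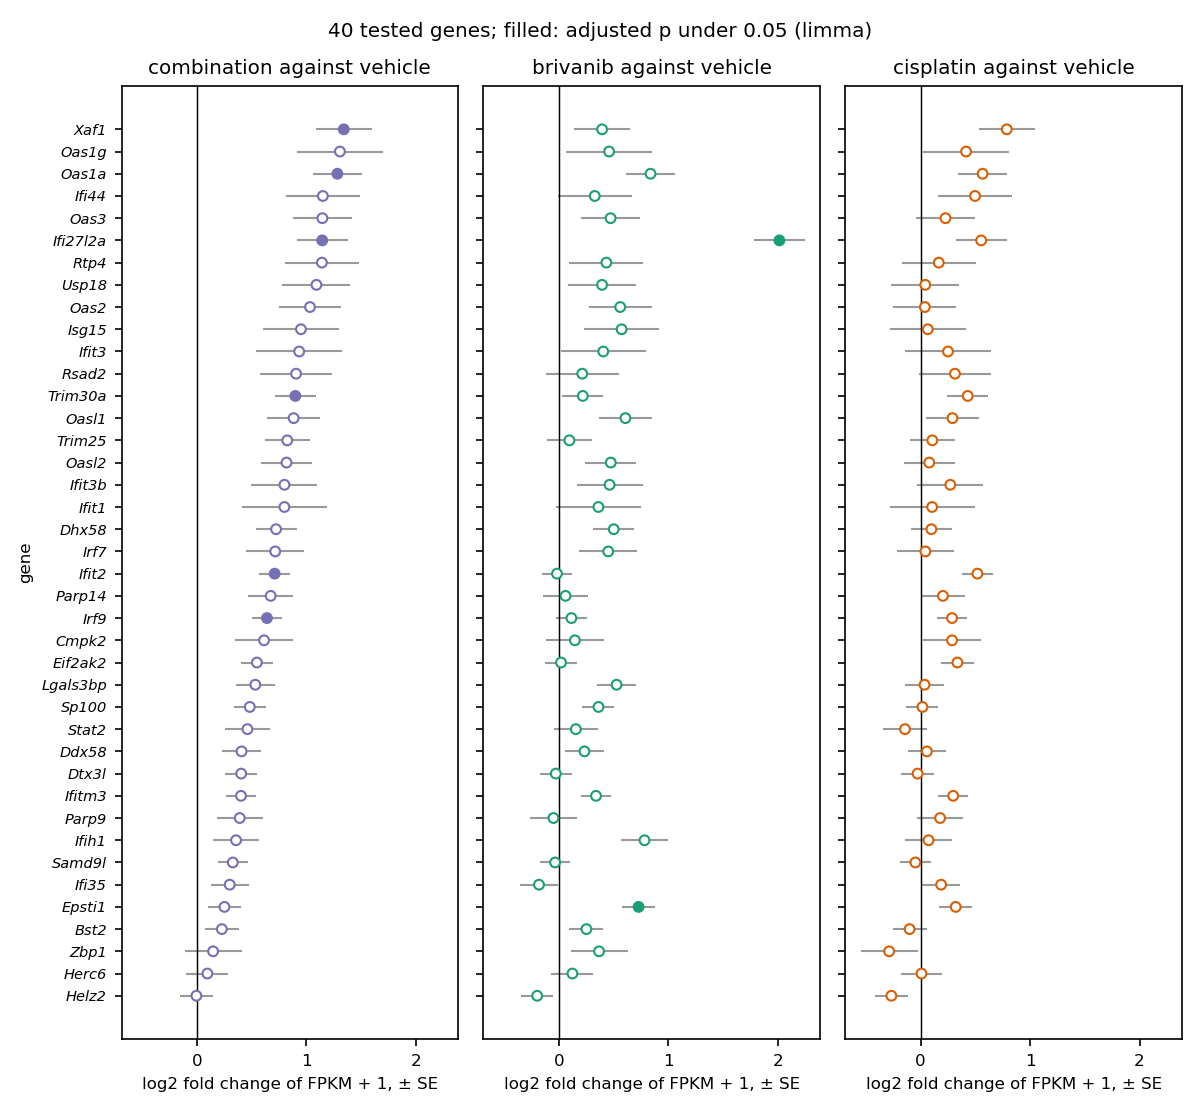
Log2 fold change of FPKM + 1 (x axis, ± standard error) of the 40 tested genes (y axis, sorted by the combination panel) for the combination, brivanib and cisplatin, each against the same 3 vehicle libraries; filled points have an adjusted p under 0.05. In the combination panel 39 of 40 points lie right of 0 and 6 are filled, in the brivanib panel 2 are filled, and in the cisplatin panel none is.

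Most OAS proteins are enzymes that make 2'-5' oligoadenylate, which switches on the ribonuclease RNase L. All 6 tested OAS family genes had no overlap between the groups, with a median log2 fold change of 1.09. Oas1a had 14.5, 11.6 and 9.16 FPKM in combination libraries 2, 3 and 4, against 4.78, 3.54 and 4.25 FPKM in vehicle libraries 2, 3 and 5. The lowest combination library was thus above the highest vehicle library, and the log2 fold change was 1.28 ± 0.22 (standard error; adjusted p = 0.0207). Oas3 had 6.33, 7.04 and 3.71 FPKM in combination libraries and 1.65, 2.08 and 2.13 FPKM in vehicle libraries, and it just missed the threshold (1.15 ± 0.27, adjusted p = 0.0504). Oas2 had 7.48, 6.42 and 6.00 FPKM under the combination, against 2.64, 2.80 and 2.71 FPKM under vehicle (1.03 ± 0.29, adjusted p = 0.0808). Oasl2, an OAS-like family member, averaged 16.7 ± 5.59 FPKM in combination tumours and 8.73 ± 1.26 FPKM in vehicle tumours (SD, n = 3 each).

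The IFIT proteins bind foreign RNA and hold back its translation. Ifit2 rose: it had 19.8, 20.8 and 15.8 FPKM in combination libraries 2, 3 and 4, against 12.3, 10.9 and 10.0 FPKM in vehicle libraries (0.71 ± 0.14, adjusted p = 0.0253). Its neighbours did not separate. Ifit1, Ifit3 and Ifit3b had log2 fold changes of 0.80 to 0.94 with adjusted p of 0.176 to 0.297, and in each the combination libraries overlapped the vehicle libraries. Ifit3 ran from 4.87 to 16.5 FPKM among the combination libraries, so its spread was large beside its difference from the vehicle range of 3.46 to 5.29 FPKM.

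Among the transcription factors, Irf9, the DNA-binding part of ISGF3, rose. It had 22.3, 19.8 and 16.7 FPKM in combination libraries and 12.2, 12.9 and 11.4 FPKM in vehicle libraries (0.64 ± 0.14, adjusted p = 0.0361). Stat2 and Irf7, the factor that amplifies interferon gene induction, had log2 fold changes of 0.46 and 0.72 with adjusted p of 0.245 and 0.168. For all 3 factors the 2 groups did not overlap.

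Of the 9 genes grouped as nuclear and other effectors, 3 rose. Xaf1, which antagonizes the apoptosis inhibitor XIAP, had 16.4, 14.8 and 11 FPKM in combination libraries, against 5.95, 3.92 and 4.90 FPKM in vehicle libraries (1.34 ± 0.25, adjusted p = 0.0235). Trim30a, a mouse TRIM protein that restrains NF-kappaB signalling, had 18.2, 19.999 and 17.7 FPKM in combination libraries and 11.9, 7.81 and 9.23 FPKM in vehicle libraries (0.90 ± 0.19, adjusted p = 0.0325). Ifi27l2a, a small interferon-induced membrane protein also known as ISG12, had 55.3, 33.4 and 35.4 FPKM in combination libraries, against 16.1, 15.9 and 21.6 FPKM in vehicle libraries (1.15 ± 0.23, adjusted p = 0.0289). In all 3 genes every combination library was above every vehicle library. Ifi44 had a log2 fold change of 1.15 as large as that of Ifi27l2a but an adjusted p of 0.0957, and its combination libraries ranged from 2.58 to 6.86 FPKM. Helz2, a nuclear receptor coactivator with helicase domains, showed the smallest difference, at 9.48 ± 1.49 FPKM in combination tumours and 9.45 ± 0.789 FPKM in vehicle tumours (SD, n = 3 each).

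The remaining groups leaned the same way with no gene past the threshold. In the ISG15 system, Usp18, the protease that removes ISG15 and also blocks IFNAR2, had 10.6, 7.69 and 4.54 FPKM in combination libraries and 2.44, 2.97 and 3.23 FPKM in vehicle libraries (1.09 ± 0.31, adjusted p = 0.0858). Trim25, a ubiquitin and ISG15 ligase that activates RIG-I, had 26.3, 18.1 and 12.8 FPKM in combination libraries, against 11.2, 8.69 and 9.92 FPKM in vehicle libraries (0.83 ± 0.20, adjusted p = 0.0567). Isg15 itself averaged 15.7 ± 7.43 FPKM under the combination and 7.13 ± 0.917 FPKM under vehicle (SD, n = 3 each; adjusted p = 0.162). Herc6, the main ISG15 ligase in mouse, averaged 3.41 ± 0.198 FPKM under the combination and 3.14 ± 0.39 FPKM under vehicle.

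Among the 7 tested restriction factors the median log2 fold change was 0.55, and in 4 the groups did not overlap. Eif2ak2, which encodes the translation-arresting kinase PKR, averaged 27.9 ± 3.45 FPKM in combination tumours and 18.6 ± 0.134 FPKM in vehicle tumours (SD, n = 3 each; adjusted p = 0.074). Ifitm3 averaged 256 ± 50.1 FPKM and Bst2 158 ± 31.6 FPKM under the combination, against 191 ± 8.9 FPKM for Ifitm3 and 133 ± 8.64 FPKM for Bst2 under vehicle (SD, n = 3 each). For Bst2 the groups overlapped, since combination 4 had 123 FPKM. The untested Mx1 had 1.29, 0.972 and 0.574 FPKM in combination libraries, against 0.258, 0.546 and 0.193 FPKM in vehicle libraries. Mx2 had 0.967, 2.33 and 0.518 FPKM in combination libraries, against 0.137, 0.0909 and 0.189 FPKM in vehicle libraries. These low values rest on few fragments, and both genes stood higher in each combination library than in any vehicle library.

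The RNA sensors of the set are the helicases RIG-I (Ddx58), MDA5 (Ifih1) and LGP2 (Dhx58) and the Z-form nucleic acid sensor Zbp1. Their median log2 fold change was 0.38, and for 3 of the 4 the groups did not overlap. Ddx58 averaged 13.9 ± 1.93 FPKM in combination tumours and 10.1 ± 0.32 FPKM in vehicle tumours, and Zbp1 averaged 10.7 ± 2.86 FPKM in combination tumours and 9.6 ± 2.89 FPKM in vehicle tumours (SD, n = 3 each). The ADP-ribosylation genes Parp14, Parp9 and its partner ubiquitin ligase Dtx3l had log2 fold changes of 0.39 to 0.68 with adjusted p of 0.101 to 0.351. Parp9 and Dtx3l overlap head to head on chromosome 16 and no strand setting is named, so reads from the shared stretch cannot be told apart.

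**Figure D3:**
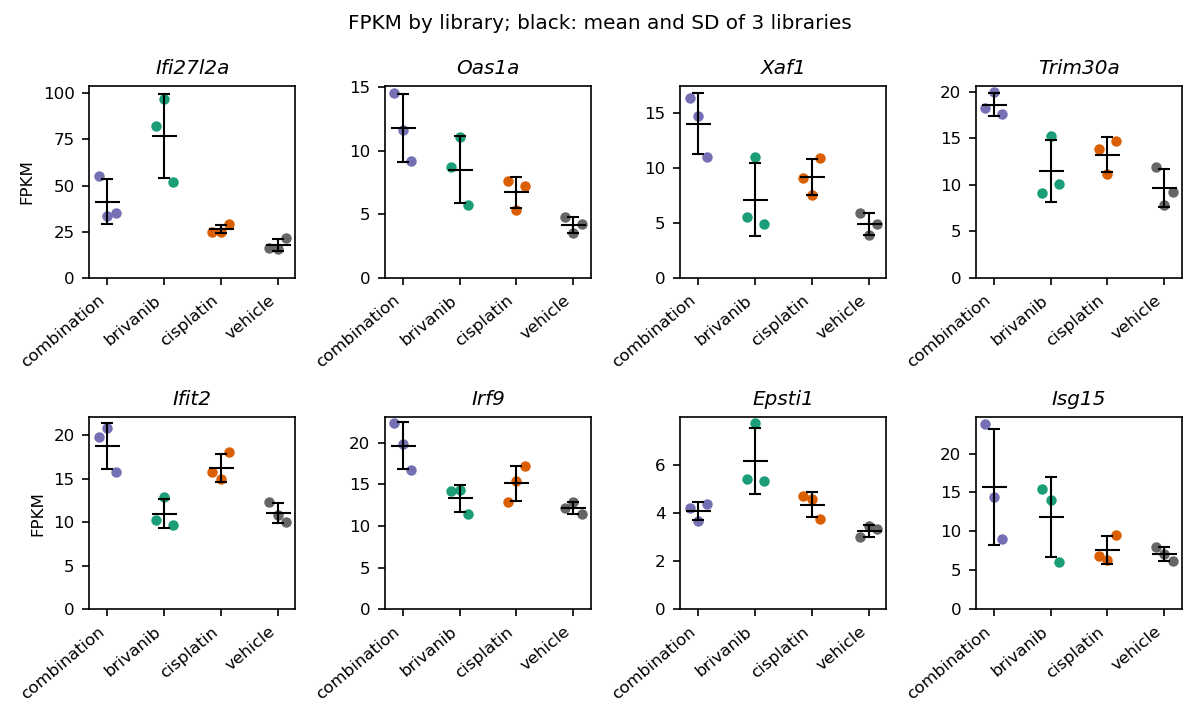
FPKM (y axis) of 8 of the genes in each of the 12 libraries, by group (x axis), with the mean and SD of 3 libraries in black. The combination libraries of Oas1a, Xaf1, Trim30a, Ifit2 and Irf9 all lie above the vehicle libraries, whereas Ifi27l2a and Epsti1 are highest under brivanib alone.

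The calls for the combination rest on few libraries. The count of 6 became 0 without combination 2 or 3, or without vehicle 2, 3 or 5, and 11 without brivanib 3 or combination 4. In the 5 fits with 0 calls the unadjusted p was under 0.05 for 20 to 28 of the 40 genes. The share over all tested genes is not given here for those fits, so these counts have no background beside them. Adipocyte marker levels moved with the result. The 8 markers summed to 96.4 to 331.1 FPKM in combination libraries and 29.9 to 31.5 FPKM in vehicle libraries, with Adipoq at 0 FPKM in vehicle 2 and 3, and 0 of the 6 tested markers were called. Endothelial marker sums were lower, at 31.8 to 39.97 FPKM in combination libraries and 49.6 to 61.4 FPKM in vehicle libraries, with 0 of 6 called. Fibroblast marker sums were 295.2 to 737.6 FPKM in combination libraries and 719.5 to 1158 FPKM in vehicle libraries, and 1 of 6, Dcn, fell (-1.17 ± 0.19, adjusted p = 0.0147). The other fibroblast markers did not pass and were split in direction. Col1a1 and Col1a2 had log2 fold changes above 0 (1.53 ± 0.84 and 1.56 ± 0.80, adjusted p = 0.359 and 0.323). Those of Col3a1, Lum and Pdgfra were below 0 (-0.996 ± 0.38, -1.04 ± 0.34 and -0.20 ± 0.19). The part of the endothelial and fibroblast markers in the result was not tested. Adding the adipocyte score (the mean log2 level of the 8 markers) to the model left 0 of 40 genes called (7 at an unadjusted p under 0.05). The median log2 fold change was then 0.32 and 36 of 40 stayed above 0. For this fit too the shares over all tested genes are not given here. The score was 2.669 to 2.998 in combination libraries and 1.201 to 1.216 in vehicle libraries, so it nearly marks the group. This fit therefore cannot separate the treatment from adipocyte content.

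**Figure D4:**
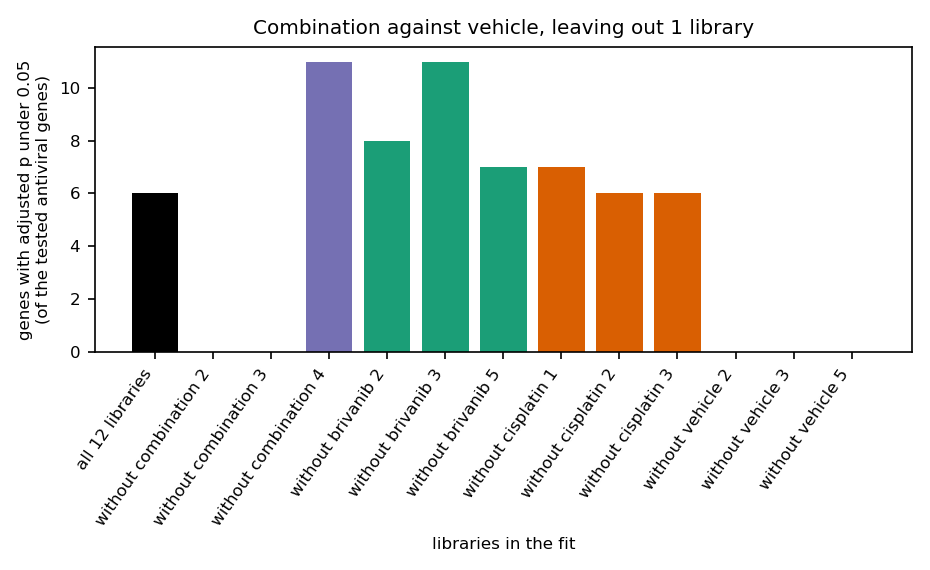
Number of tested antiviral genes with an adjusted p under 0.05 (limma, y axis) for the combination against vehicle with all 12 libraries and with each library left out in turn (x axis). Bars are absent where the count is 0: without combination 2 or 3 and without vehicle 2, 3 or 5.

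Brivanib alone was set against the same 3 vehicle libraries. Under it 2 of the 40 tested genes rose (5.0%), where 1.71% of all tested genes were called higher, and 0 fell, where 0.105% of all were called lower (1.81% in either direction). Ifi27l2a had 82.1, 96.6 and 52.0 FPKM in brivanib libraries 2, 3 and 5, against 16.1, 15.9 and 21.6 FPKM in vehicle libraries. It was the largest change of any gene of the set in the 3 comparisons with vehicle (2.02 ± 0.23, adjusted p = 0.00174). Epsti1, an interferon-induced gene first found in breast epithelium grown with stroma, had 5.39, 7.72 and 5.33 FPKM in brivanib libraries and 2.98, 3.47 and 3.34 FPKM in vehicle libraries (0.73 ± 0.15, adjusted p = 0.0320).

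Most other genes had values above vehicle without passing the threshold. Oas1a had 8.69, 11 and 5.75 FPKM under brivanib (0.84 ± 0.22, adjusted p = 0.0992), with every library above those of vehicle. Ifih1 had 2.21, 2.40 and 1.17 FPKM in brivanib libraries, against 0.707, 0.691 and 0.606 FPKM in vehicle libraries (0.78 ± 0.21, adjusted p = 0.108). In all, 34 of 40 log2 fold changes were above 0, against 48.3% of all tested genes, and the median was 0.36, against -0.01 over all. The groups did not overlap in 9 of 40 genes with brivanib above, against 8.95% of all tested genes, and in 0 with brivanib below, against 6.9%. Ifit2, which rose under the combination, had 10.3, 12.8 and 9.72 FPKM under brivanib, overlapping the vehicle libraries (-0.02 ± 0.14, adjusted p = 0.982).

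The brivanib libraries differed among themselves. Brivanib 3 was the highest library in 39 of the 42 genes, and brivanib 5 was the lowest in 31. Without brivanib 3 the median log2 fold change was 0.09, and without brivanib 5 it was 0.60. Macrophage markers moved with the group: the 10 markers summed to 350.2 to 427.7 FPKM in brivanib libraries and 129.3 to 230.2 FPKM in vehicle libraries, and 1 of the 10 was called higher. The sum of the 6 fibroblast markers was 1528 to 2045 FPKM in brivanib libraries and 719.5 to 1158 FPKM in vehicle libraries. Of these markers 2 rose, the collagen genes Col1a1 (4.85 ± 0.84, adjusted p = 0.0118) and Col1a2 (4.61 ± 0.80, adjusted p = 0.0120). The others did not pass, among them Col3a1 (0.70 ± 0.38, adjusted p = 0.528), Dcn (0.02 ± 0.19) and Pdgfra (0.05 ± 0.19). The part of the fibroblast markers in the result was not tested. With the macrophage score in the model 0 genes were called (9 at an unadjusted p under 0.05), Ifi27l2a had a log2 fold change of 2.2 with an adjusted p of 0.0712, and the median was 0.55. The share of all tested genes at an unadjusted p under 0.05 is not given here for that fit. With the adipocyte score the median was -0.02, so its direction turned. The macrophage and adipocyte scores were each higher in every brivanib library than in any vehicle library. These fits therefore cannot separate brivanib from cell content. Epsti1 lost its call in 16 of 24 alternative analyses and Ifi27l2a in 1 of 25.

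Cisplatin alone changed none of the 40 genes past the threshold, in a comparison in which 0.19% of all tested genes were called, 0.119% higher and 0.0702% lower. An unadjusted p under 0.05 was found for 6 of the 40 (15%), against 14.3% of all tested genes, and voom on the recovered fragments also called 0. The 4 genes with the smallest p were Ifit2, Xaf1, Oas1a and Ifi27l2a. Ifit2 had 15.8, 14.9 and 18.0 FPKM in cisplatin libraries 1, 2 and 3, against 12.3, 10.9 and 10.0 FPKM in vehicle libraries (0.52 ± 0.14, adjusted p = 0.130). Xaf1 had 9.13, 7.59 and 10.9 FPKM under cisplatin (0.79 ± 0.25, adjusted p = 0.189), Oas1a 7.65, 5.32 and 7.18 FPKM (0.57 ± 0.22, adjusted p = 0.268), and Ifi27l2a 25.1, 25.1 and 29.1 FPKM (0.55 ± 0.23, adjusted p = 0.300). In each of these 4 genes every cisplatin library was above every vehicle library, as in 8 of 40 genes in all, against 17.0% of all tested genes. Helz2 was the 1 gene with every cisplatin library below every vehicle library, against 6.72% of all tested genes. The log2 fold change was above 0 for 34 of 40 genes, against 62.0% of all. It was above 0 for 26 of 40 with median-of-ratios scaling or with ribosomal-like features removed, and for 24 of 40 with the adipocyte score in the model. The 62.0% belongs to the main fit. The share over all genes is not given here for the alternatives, so their counts cannot be set against it. The median log2 fold change was 0.17 over the 40 genes and 0.07 over all tested genes. Without cisplatin 3 these medians were 0.07 and 0.06, and without vehicle 5 they were 0.10 and 0.07.

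Adding brivanib to cisplatin was read from the combination against cisplatin alone. No gene of the set passed the threshold, and 0.0% of all tested genes did. The unadjusted p was under 0.05 for 21 of the 40 (52.5%), against 6.74% of all, and voom called 0 of the 40. The log2 fold change was above 0 for 39 of 40, against 45.9% of all, with a median of 0.51 over the 40 and -0.02 over all tested genes. All 3 combination libraries were above all 3 cisplatin libraries in 19 of 40 genes, against 4.94% of all tested genes, and below them in 0, against 7.44%. Adipocyte marker sums were apart as well, at 96.4 to 331.1 FPKM in combination libraries and 25.5 to 76.3 FPKM in cisplatin libraries, with 0 of the 6 tested markers called, and with the adipocyte score in the model the median of the 40 genes was 0.28. The smallest p values, each with an adjusted p of 0.657, belonged to Trim25, Oas2, Oas3 and Usp18. Trim25 had 26.3, 18.1 and 12.8 FPKM in combination libraries, against 10.6, 9.93 and 11.8 FPKM in cisplatin libraries (0.72 ± 0.20). Oas2 had 7.48, 6.42 and 6.00 FPKM in combination libraries, against 4.29, 1.84 and 2.70 FPKM in cisplatin libraries (1.0 ± 0.29). Usp18 had 10.6, 7.69 and 4.54 FPKM under the combination, against 2.72, 2.37 and 4.02 FPKM under cisplatin (1.05 ± 0.31), and Oas3 had 6.33, 7.04 and 3.71 FPKM under the combination, against 3.96, 1.72 and 2.04 FPKM under cisplatin (0.92 ± 0.27). The groups were apart for Trim25, Oas2 and Usp18, while combination 4 and cisplatin 1 crossed for Oas3.

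Adding cisplatin to brivanib was read from the combination against brivanib alone. Ifit2 rose, the only one of the 40 genes past the threshold (2.5%), where 2.02% of all tested genes were called higher and 1.85% lower (3.87% in either direction). It had 19.8, 20.8 and 15.8 FPKM in combination libraries, against 10.3, 12.8 and 9.72 FPKM in brivanib libraries (0.73 ± 0.14, adjusted p = 0.0187). Irf9 had 22.3, 19.8 and 16.7 FPKM in combination libraries, against 14.2, 14.3 and 11.4 FPKM in brivanib libraries, with an adjusted p of 0.0580 (0.52 ± 0.14). Xaf1 had 16.4, 14.8 and 11 FPKM in combination libraries, against 5.51, 11 and 4.89 FPKM in brivanib libraries (0.95 ± 0.25, adjusted p = 0.0612). Ifi27l2a had a difference of the opposite sign, with 55.3, 33.4 and 35.4 FPKM in combination libraries, against 82.1, 96.6 and 52.0 FPKM in brivanib libraries (-0.87 ± 0.23, adjusted p = 0.0596). Epsti1 likewise had 4.22, 3.67 and 4.38 FPKM in combination libraries, below the 5.39, 7.72 and 5.33 FPKM of all brivanib libraries (-0.48 ± 0.15, adjusted p = 0.102). The groups did not overlap for 7 of 40 genes with the combination above, against 14.1% of all tested genes, and for 1, Epsti1, with it below, against 9.14%. The log2 fold change was above 0 for 34 of 40 genes, against 56.4% of all, and the median log2 fold change was 0.44, against 0.04 over all. The count of 1 became 5 without brivanib 3, 4 without combination 4 and 0 without combination 3, and it was 5 with the muscle score in the model. The median became 0.20 without brivanib 5 and 0.24 without combination 2. Fibroblast markers summed to 295.2 to 737.6 FPKM in combination libraries and 1528 to 2045 FPKM in brivanib libraries, and 3 of 6 fell, Col1a1, Col3a1 and Dcn (-3.32 ± 0.84, -1.70 ± 0.38 and -1.19 ± 0.19, adjusted p = 0.0497, 0.0339 and 0.0103). Of the endothelial markers Tek fell (-0.88 ± 0.21, adjusted p = 0.0430), and of the natural killer cell markers Klrb1c rose (1.11 ± 0.26, adjusted p = 0.0396). Their part in the result was not tested.

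The interaction asked whether the difference brivanib made with cisplatin present (combination minus cisplatin) equalled the one it made alone (brivanib minus vehicle). No gene of the set passed the threshold, against 0.14% of all tested genes, 4 had an unadjusted p under 0.05 (10.0% of the 40, and 10.0% of all tested genes), and voom called 0. The smallest p values belonged to Ifi27l2a (-1.42 ± 0.33, adjusted p = 0.122), Epsti1 (-0.80 ± 0.22, adjusted p = 0.201), Dtx3l (0.46 ± 0.21, adjusted p = 0.495) and Helz2 (0.46 ± 0.21, adjusted p = 0.495). Dtx3l had 14.5, 12.9 and 10.3 FPKM in combination libraries, 7.95, 10.8 and 8.37 FPKM in brivanib libraries, 7.95, 8.85 and 10.2 FPKM in cisplatin libraries and 9.59, 8.79 and 9.05 FPKM in vehicle libraries. Helz2 had 11.1, 9.13 and 8.19 FPKM in combination libraries, 6.90, 10.2 and 7.51 FPKM in brivanib libraries, 7.31, 7.81 and 7.89 FPKM in cisplatin libraries and 9.40, 8.69 and 10.3 FPKM in vehicle libraries. For both, the combination was above cisplatin in every library, while brivanib alone overlapped vehicle. The interaction was above 0 for 32 of the 40 genes, against 47.3% of all tested genes, with a median of 0.24, against -0.02 over all. The median ranged from 0.02 without brivanib 5 and 0.06 without combination 2 to 0.45 without brivanib 3.

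**Figure D5:**
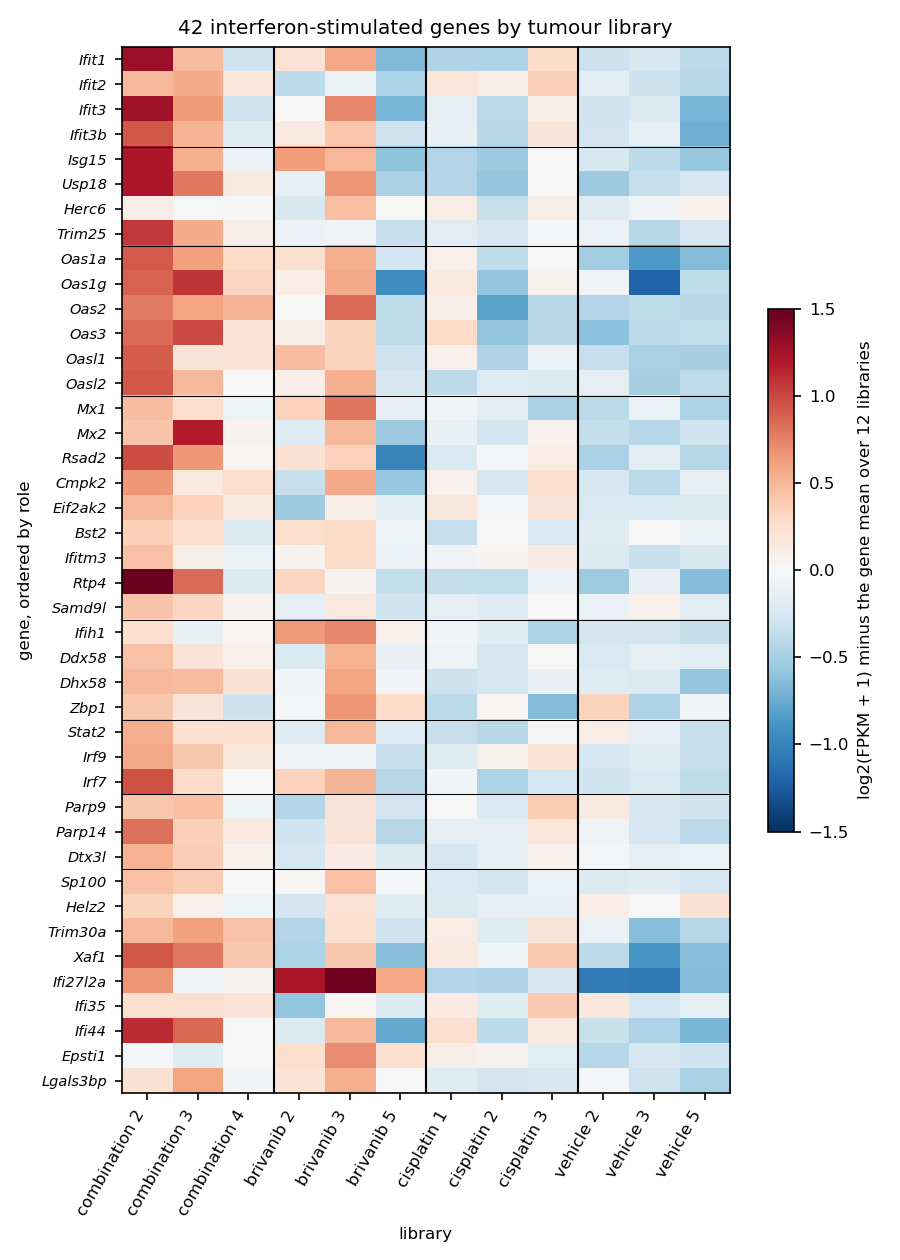
Log2(FPKM + 1) minus each gene's mean over 12 libraries (colour) for the 42 genes (rows, grouped by role) in the 12 libraries (columns). Combination 2 holds the highest value of 24 genes, brivanib 3 of 10 and combination 3 of 7; most vehicle values lie below the gene mean.

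The combination most often held the highest group mean. Of the 40 tested genes, the combination had the highest group mean on the log2 scale in 33, brivanib in 6, vehicle in 1 and cisplatin in 0. Vehicle had the lowest mean in 31, cisplatin in 6 and brivanib in 3. Single libraries spread widely within the treated groups. Among the combination libraries, combination 2 was the highest in 34 of 42 genes and combination 4 the lowest in 36. The median deviation from the gene mean was 0.61, 0.43 and 0.05 on the log2 scale in combination libraries 2, 3 and 4, and -0.01, 0.45 and -0.30 in brivanib libraries 2, 3 and 5. It was -0.12, -0.26 and -0.01 in cisplatin libraries 1, 2 and 3, and -0.23, -0.26 and -0.38 in vehicle libraries 2, 3 and 5. Combination 4 therefore lay near the level of cisplatin 3 and brivanib 2, and brivanib 5 within the vehicle range. The median SD between libraries on the log2 scale was 0.29 in the combination, 0.36 in brivanib, 0.20 in cisplatin and 0.16 in vehicle. Over all tested genes it was 0.17, 0.21, 0.16 and 0.15 for the same groups.

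The genes moved together from library to library. Pearson's r between a gene and the mean of the other tested genes of the set, over the 12 libraries, had a median of 0.86, and 27 of 40 genes were above 0.8. With group means removed the median r was 0.80. Usp18 followed the others most closely (0.96) and Epsti1 least (0.31). Zbp1, Ifi35 and Helz2 were also among the loosest, at 0.42, 0.44 and 0.46. The points share libraries, depth and scaling, so these are descriptions.

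Genes with and without an ISRE core in the promoter window can be set side by side, with no test made between them. For the combination against vehicle the median log2 fold change was 0.80 over 15 genes with the core, 2 of which were called. It was 0.61 over 17 genes in the table without the core, 3 of which were called, and 0.88 over the 8 tested genes with no window, 1 of which was called. Neighbouring genes made up much of the set: 17 of the 42 lie in 6 clusters with gaps of at most 200 kb. In the Ifit cluster (chromosome 19, 34550694 to 34650009) Ifit2 rose under the combination and Ifit1, Ifit3 and Ifit3b did not pass. In the Oas cluster (chromosome 5, 120730333 to 120907521) Oas1a rose and Oas1g, Oas2 and Oas3 had adjusted p of 0.0504 to 0.102.

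Some levels depend on how fragments were split. The longest open reading frames of Ifit3 and Ifit3b were 99.09% identical over 1212 bases and those of Oas1a and Oas1g 96.74% identical over 1104 bases, so the division between each pair is uncertain. The sum of Oas1a and Oas1g was 21.2, 19.4 and 13.4 FPKM in combination libraries, against 7.79, 4.35 and 6.45 FPKM in vehicle libraries, and again the groups did not overlap. The sum of Ifit3 and Ifit3b was 20.7, 13.2 and 6.29 FPKM in combination libraries and 6.14, 6.80 and 4.14 FPKM in vehicle libraries, which overlapped. For Xaf1 the transcript with most FPKM (29.0%) was a 415-base one annotated for nonsense-mediated decay. Its share was 37.5% in combination libraries (5.27 ± 0.52 FPKM) and 11.6% in vehicle libraries (0.57 ± 0.39 FPKM; SD, n = 3 each). Much of the rise in Xaf1 FPKM thus lay in this transcript. The second Xaf1 transcript, a protein-coding one, averaged 3.51 ± 1.40 FPKM in combination libraries and 1.69 ± 0.61 FPKM in vehicle libraries. In whole fragments, before scaling for depth, Xaf1 had 513, 427 and 203 in combination libraries and 242, 166 and 171 in vehicle libraries, and combination 4 was the shallowest of the 12 libraries. In voom, which scales these fragments for depth, its log2 fold change was 0.90 with an adjusted p of 0.110. In 22 of the 42 genes a single transcript held over 80% of the gene's FPKM, among them Oas1a, Ifi27l2a, Ifit2, Trim30a and Epsti1.

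The rest of the interferon pathway was read from lists of its parts. Of 21 interferon genes none reached the cutoff and 14 had 0 fragments in every library. Ifnb1 had 4 fragments in all 12 libraries together, and Ifng, the type II interferon, had 178. None of the 8 tested receptor and kinase genes was called in any of the 6 comparisons, and the highest were Jak1 at 77.8 FPKM and Ifngr1 at 25.2 FPKM. The same held for the 6 transcription factors outside the set, led by Irf1 (29.7 FPKM) and Irf2 (27.0 FPKM). It held too for the 10 tested sensors and adaptors, led by Mavs (24.2 FPKM) and Tbk1 (22.3 FPKM), and for the 9 inhibitors, led by Samhd1 and Socs3. The cGAS gene, listed as Mb21d1, averaged 0.369 FPKM and was not tested. It had 0.423, 0.912 and 0.658 FPKM in brivanib libraries and 0.336, 0.300 and 0.154 FPKM in vehicle libraries. It had 0.227, 0.172 and 0.521 FPKM in combination libraries and 0.127, 0.219 and 0.385 FPKM in cisplatin libraries. These low values rest on 353 fragments in all 12 libraries together. The STING gene, listed as Tmem173, averaged 21.3 FPKM with a log2 fold change of 0.12 ± 0.11 for the combination against vehicle (adjusted p = 0.625).

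A list of 36 further interferon-stimulated genes was read as well. Of its 33 tested genes, 1 rose under the combination against vehicle, where 1.82% of all tested genes were called higher. It was Apol9b, an apolipoprotein L family gene, with 11.8, 8.05 and 4.89 FPKM in combination libraries and 1.47, 1.79 and 2.81 FPKM in vehicle libraries (1.57 ± 0.32, adjusted p = 0.0297). The median log2 fold change of the list in that comparison was 0.33, against 0.71 over the 40 tested genes of the set and 0.04 over all tested genes. Under brivanib against vehicle 1 rose, where 1.71% of all tested genes were called higher. It was Slfn5, a Schlafen family gene, with 7.73, 7.60 and 4.81 FPKM in brivanib libraries and 2.91, 2.70 and 2.76 FPKM in vehicle libraries (1.0 ± 0.20, adjusted p = 0.0235). The list's median there was 0.15, against 0.36 over the 40 genes and -0.01 over all tested genes. A list grouped as biased to interferon-gamma had 7 tested genes. Of them Psmb8, an immunoproteasome subunit, rose under brivanib against vehicle (1.02 ± 0.20, adjusted p = 0.0204), where 1.71% of all tested genes were called higher. Psmb8 fell under the combination against brivanib (-0.81 ± 0.20, adjusted p = 0.0427), where 1.85% of all tested genes were called lower and 2.02% higher. Tap1, a peptide transporter, and Nlrc5, the activator of MHC class I genes, rose in the combination against brivanib (0.73 ± 0.18 and 0.86 ± 0.20, adjusted p = 0.0475 and 0.0377). T cell markers summed to 2.09 to 4.88 FPKM in combination libraries and 4.65 to 23.8 FPKM in vehicle libraries, and natural killer cell markers to 77.6 to 122.3 FPKM in combination libraries and 88.8 to 116.1 FPKM in vehicle libraries. Their part in these results was not tested.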

How the data were processed

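The authors deposited transcript FPKM values from BGISEQ-500 reads, made by RSEM on Bowtie2 alignments according to the series' design text. The submitters' processing notes give Bowtie2 2.2.5 and RSEM 1.2.12 and also name HISAT and Bowtie. The notes list build mm9 and the design text mm10; 98.48% of the transcripts found in GENCODE M21 (GRCm38, mm10) had identical coordinates, so positions are given on GRCm38. A single column (1) whose name fits none of the samples was set aside, and 3 broken lines were dropped. FPKM times transcript length went in whole steps in every library (100% of values up to 100 fragments within 0.01), which gave the fragment counts used by voom as an alternative.

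FPKM was summed over 135276 transcripts to 53801 genes. limma 3.58.1 in R 4.3.3 was fitted to log2(FPKM + 1) of 14246 genes with a mean of at least 1 FPKM, over all 12 libraries with 1 mean per group, a mean-variance trend and 8 residual degrees of freedom. Tests were two-sided, with Benjamini-Hochberg adjustment over all tested genes and a threshold of 0.05. Fold changes on this scale understate low genes. The fit was tested on simulated data. Libraries held 17.161 to 30.943 M fragments, so genes with few fragments are measured less precisely. The 3 comparisons with vehicle share its libraries. Per-library values are given for each gene past the threshold and, where fewer than 4 passed, for the 4 with the smallest p. The genes, lists and tests were chosen with earlier results of these data known. A total of 24 planned and 1 added alternative were run.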

Additional observations from a re-analysis of the deposited data

Results flagged for a closer look

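Epsti1 stood out because its libraries with cisplatin lay on opposite sides of those without it, depending on whether brivanib was given; neither difference passed the threshold in limma (adjusted p = 0.364 without brivanib and 0.102 with it). Without brivanib, the 3 cisplatin libraries had 4.70, 4.58 and 3.73 FPKM, all above the 2.98, 3.47 and 3.34 FPKM of the vehicle libraries. With brivanib, the combination libraries had 4.22, 3.67 and 4.38 FPKM, all below the 5.39, 7.72 and 5.33 FPKM of the brivanib libraries. The difference between the 2 effects was -0.80 ± 0.22 on the log2 scale in limma, with an adjusted p of 0.201, and so did not pass the threshold. Outliers within a group were not sought, since each group has 3 libraries.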

How the results depend on the processing

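For cisplatin against vehicle and for the combination against cisplatin, 0 genes of the set were called in limma in each of 25 alternatives. For brivanib against vehicle, the count of 2 was 1 with ribosomal-like features removed, with a mean of at least 5 FPKM, with no filter, with voom, with the groups of the comparison only, and with the muscle or adipocyte score, and 0 with the macrophage score; leaving out 1 library gave 1 to 3. For the combination against vehicle, the count of 6 was 3 with voom, 0 with no filter, 0 with the adipocyte score and 0 without brivanib 5 and combination 2 together, an alternative chosen after seeing the data; leaving out 1 library gave 0 to 11. For the combination against brivanib, the count of 1 was 2 with median-of-ratios scaling, quantile normalization or voom, 5 with the muscle score and 0 with the groups of the comparison only or the macrophage score; leaving out 1 library gave 0 to 5. The interaction count of 0 was 1 without brivanib 5 and combination 2 together and could not be fitted on the groups of a comparison only. Among the genes named as called, none changed sign in any alternative; Oas1a kept its call in 16 of 25, Xaf1 in 15, Irf9 and Trim30a in 14. With the replicate number as a block, the counts were 0 for both comparisons in which the combination's main count was above 0, against vehicle and against brivanib, and 1 for brivanib against vehicle. Whether the numbers pair the samples is not known. Over 13 pairs with the same number the correlation of deviations was -0.16 to 0.21, and over 41 pairs with unlike numbers it was -0.23 to 0.23. Deviations from a mean of 3 libraries cancel within the group, so this check cannot exclude pairing. No other library shares the number of cisplatin 1 or of combination 4. Where a count moved, the cause was not tested. Depth limits Mx1 and Mx2, with at most 95 fragments a library.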
